A study of Mus musculus with 6 samples.

Results

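Kruppel-like factors are transcription factors with a shared zinc-finger domain that binds GC-rich and CACCC-type DNA. The genes described here are Klf2, Klf3, Klf4, Klf5, Klf6, Klf9, Klf10, Klf11, Klf13 and Klf15, which are 10 of the 55536 genes in the deposited table and were picked out of the table by gene name. They were followed in bulk RNA sequencing of 3 livers of Sirt5-/- mice, which lack the mitochondrial deacylase SIRT5, and of 3 livers of Sirt5+/+ mice. All mice were C57BL/6 males. Both genotypes were injected hydrodynamically at 4 weeks of age with 50 µg of a plasmid carrying myc-tagged YAP5SA, an active form of the co-activator YAP, behind the CMV promoter, together with 10 µg of a plasmid for the PiggyBac transposase, and the samples are labelled as taken 20 days later. Every liver therefore carried the YAP5SA plasmid, and livers given the red fluorescent protein plasmid that the protocol also names were not analysed here. The labels do not say how the Sirt5 allele was made. They also leave out whether each liver came from a different mouse, so the p-values below speak only of the spread between these samples.

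The family divides by the partners its members recruit. KLF2, KLF4, KLF5 and KLF6 act largely as activators; KLF2 and KLF4 are switched on by blood flow in endothelium, KLF5 is tied to growth of epithelial cells, and KLF6 is induced early after injury in the liver. KLF3 is a repressor that recruits the corepressor CtBP, and KLF9, KLF10, KLF11 and KLF13 can bind the SIN3A corepressor; KLF10 and KLF11 were described as genes induced by TGF-beta, and KLF9 as a gene induced by glucocorticoids. KLF15 supports gluconeogenesis and the breakdown of amino acids in liver. In bulk tissue, fewer cells of a type and less RNA per cell cannot be told apart.

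Library totals ran from 20025180 to 24330797 estimated read counts in Sirt5-/- livers and from 19307808 to 23410091 in Sirt5+/+ livers. The share of counts from the mitochondrial genome was 40.8, 21.5 and 17.5% in Sirt5-/- replicates 1 to 3, against 7.20, 6.58 and 46.4% in Sirt5+/+ replicates 1 to 3. Sirt5-/- replicate 1 and Sirt5+/+ replicate 3 thus stand apart from the rest of their genotypes, and results that change when they are left out are given with the value without them. Sirt5 averaged 0.851 ± 0.373 CPM in Sirt5-/- livers and 15.01 ± 2.16 CPM in Sirt5+/+ livers (SD, n = 3 each), in accord with the labels in all 6 libraries. CPM are counts relative to each library's total, scaled between libraries with TMM factors. A floor of 3 counts equals 0.0827 to 0.393 CPM, depending on the library.

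The sequence before the start site is shown for 3 of the activators that rose and for Klf15, the member with the largest fall, because these promoters hold copies of the E-box CACGTG, the element bound by the circadian CLOCK and BMAL1 proteins, or of the MEF2 element (CTA and TAG with any 4 bases between them), through which flow induces Klf2 in endothelium. Capitals mark these elements. Both read the same on either strand as motifs, no match overlapped a match of any other motif searched, and each sequence is the 250 bases before the RefSeq start on GRCm38.p6, written in the direction of transcription.
Klf2 promoter, chr8:72318812-72319061, plus strand: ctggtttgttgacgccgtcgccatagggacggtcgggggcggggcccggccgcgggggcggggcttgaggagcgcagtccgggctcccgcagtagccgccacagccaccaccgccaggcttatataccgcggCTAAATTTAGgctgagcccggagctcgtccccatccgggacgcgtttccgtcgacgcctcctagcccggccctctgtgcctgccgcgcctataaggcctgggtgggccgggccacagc
Klf4 promoter, chr4:55532476-55532725, minus strand: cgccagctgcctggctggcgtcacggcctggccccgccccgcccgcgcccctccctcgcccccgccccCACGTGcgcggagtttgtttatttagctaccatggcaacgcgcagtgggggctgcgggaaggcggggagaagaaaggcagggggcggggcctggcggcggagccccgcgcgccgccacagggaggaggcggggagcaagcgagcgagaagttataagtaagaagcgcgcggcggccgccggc
Klf6 promoter, chr13:5861239-5861488, plus strand: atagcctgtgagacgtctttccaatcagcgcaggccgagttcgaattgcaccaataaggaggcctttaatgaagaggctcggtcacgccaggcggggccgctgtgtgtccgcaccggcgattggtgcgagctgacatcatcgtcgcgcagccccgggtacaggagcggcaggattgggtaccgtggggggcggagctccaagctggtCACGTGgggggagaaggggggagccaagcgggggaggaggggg
Klf15 promoter, chr6:90462326-90462575, plus strand: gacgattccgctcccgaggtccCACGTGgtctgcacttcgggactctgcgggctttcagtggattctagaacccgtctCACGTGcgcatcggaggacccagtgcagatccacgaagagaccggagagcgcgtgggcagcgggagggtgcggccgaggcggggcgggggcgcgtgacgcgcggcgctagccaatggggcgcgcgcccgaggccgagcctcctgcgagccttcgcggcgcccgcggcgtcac

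The table of promoters held 8 of the 10 members; Klf5 and Klf10 are named only. The MEF2 element of Klf2 lies 118 bases before the start, and 3.20% of all 32851 promoters of this length hold one. CACGTG lies 182 bases before the start in Klf4, 43 bases in Klf6, 214 bases in Klf11, and 228 and 172 bases in Klf15. At least 1 copy is held by 6.02% of all promoters and at least 2 copies by 0.429%. The E-box therefore occurs in members that rose, in 1 that fell and in 1 that did not pass the test. The 8 promoters are 59.6 to 78.4% G and C, against a median of 52.4% over all promoters, and 7 of them hold the GC box GGGCGG, against 32.7% of all. The CCAAT box, searched as CCAAT, is in 5 members and in 33.9% of all promoters, and the AP-1 form TGANTCA is in Klf9 and in 6.75% of all. No member's window held the cyclic AMP response element TGACGTCA, the TEAD element GGAATG, the glucocorticoid response element (GNACA and TGTNC with any 3 bases between them) or the element TTANGTAA bound by HLF and TEF, which occur in 1.55%, 12.6%, 0.387% and 2.06% of all promoters; all motifs were searched on both strands.

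All 10 members were expressed well enough to be tested. With the edgeR quasi-likelihood F test and Benjamini-Hochberg adjustment over all 14799 genes tested, 4 members rose in Sirt5-/- livers (Klf2, Klf4, Klf5 and Klf6), 2 fell (Klf13 and Klf15) and 4 did not pass (Klf3, Klf9, Klf10 and Klf11). Of all genes tested, 34.5% passed, 17.4% as higher and 17.1% as lower. Since the members were chosen with earlier results of these data known, these shares are a description. By CPM, all 3 libraries of a genotype lay apart from the 3 of the other in 6 members. Klf2, Klf4, Klf5 and Klf6 were higher and Klf11 and Klf15 lower in Sirt5-/- livers. Of all genes tested, 49.8% were so separated, 25.8% as higher and 24% as lower. The median log2 fold change of the members was -0.09, against -0.08 over all genes tested, with large changes in both directions within the family.

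**Figure D1:**
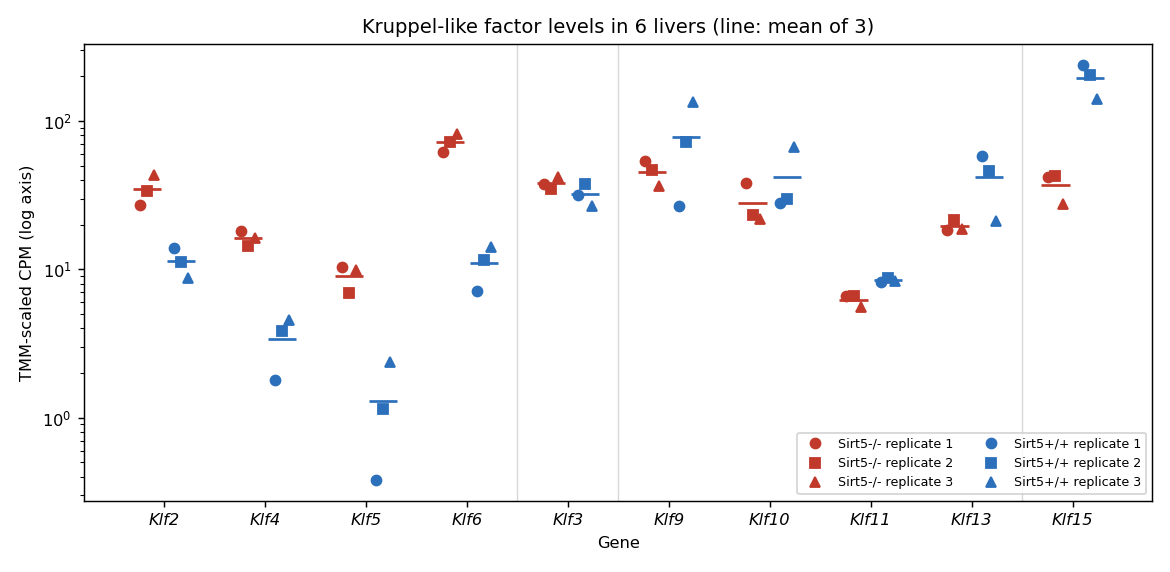
TMM-scaled CPM of the 10 members on a log axis, with 1 point per library, Sirt5-/- left of Sirt5+/+ in each pair, and bars for the mean of 3 libraries. Klf2, Klf4, Klf5 and Klf6 lie wholly higher and Klf15 and Klf11 wholly lower in Sirt5-/- livers, while the genotypes overlap in Klf3, Klf9, Klf10 and Klf13, in Klf13 by 1 Sirt5+/+ liver.

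Klf2, Klf4, Klf5 and Klf6 rose together, by 3.04-fold to 7.62-fold. Klf6 (ENSMUSG00000000078, chromosome 13, 5861482 to 5870394), the injury-induced member, measured 61.4, 72.3 and 81.7 CPM in Sirt5-/- replicates 1 to 3, against 7.17, 11.6 and 14.2 CPM in Sirt5+/+ replicates 1 to 3. The lowest Sirt5-/- liver lay well above the highest Sirt5+/+ liver. The log2 fold change was 2.72 ± 0.31 (SE; edgeR adjusted p = 0.00168). Klf5 (ENSMUSG00000005148, chromosome 14, 99298691 to 99315036), linked to epithelial growth, measured 10.4, 6.89 and 9.86 CPM in Sirt5-/- livers, against 0.380, 1.14 and 2.36 CPM in Sirt5+/+ livers. It was the scarcest member per length in Sirt5+/+ livers, where these values rest on 8, 32 and 18 counts, and its log2 fold change of 2.93 ± 0.57 (edgeR adjusted p = 0.00610) had the widest error of the 10 members. Without Sirt5+/+ replicate 3 it was 3.57, and without Sirt5-/- replicate 1 as well, 3.46.

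Klf4 (ENSMUSG00000003032, chromosome 4, 55527143 to 55532466), known from endothelium, monocytes and the maintenance of pluripotency, measured 18.0, 14.3 and 16.2 CPM in Sirt5-/- livers, against 1.80, 3.82 and 4.59 CPM in Sirt5+/+ livers. The Sirt5-/- livers were close to each other and all above the Sirt5+/+ livers, with a log2 fold change of 2.28 ± 0.36 (edgeR adjusted p = 0.00306). Klf2 (ENSMUSG00000055148, chromosome 8, 72319033 to 72321656), which holds endothelial cells and T cells quiescent, measured 27.4, 33.6 and 43.1 CPM in Sirt5-/- livers, against 13.95, 11.3 and 8.78 CPM in Sirt5+/+ livers. It had the smallest change of these 4 genes, with a log2 fold change of 1.61 ± 0.28 (edgeR adjusted p = 0.00390). Klf2, Klf4, Klf5 and Klf6 passed under all 16 alternatives of processing in which the test was repeated, with log2 fold changes of 1.43 to 2.25 for Klf2, 1.98 to 2.96 for Klf4, 2.48 to 3.73 for Klf5 and 2.50 to 3.48 for Klf6. The summed level of these 4 genes was 132 ± 17.3 CPM in Sirt5-/- livers and 27.0 ± 3.37 CPM in Sirt5+/+ livers (SD, n = 3 each).

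**Figure D2:**
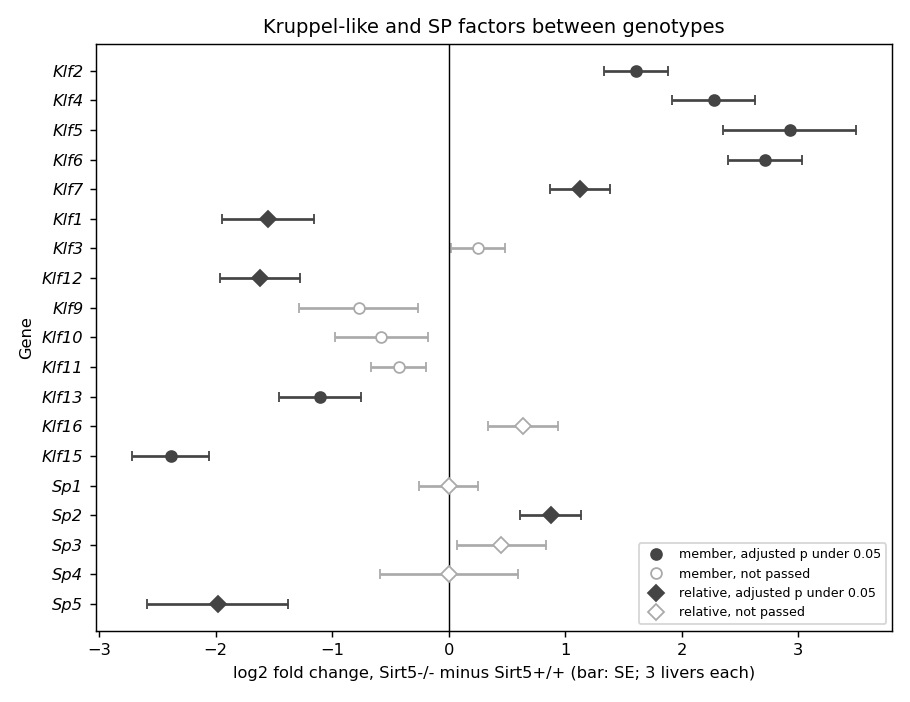
Log2 fold change of Sirt5-/- over Sirt5+/+ livers for the 10 members and the tested other Kruppel-like and SP factors, with the standard error as a bar, circles for members, diamonds for relatives and open symbols for genes that did not pass. Klf5 at 2.93, Klf6 at 2.72, Klf4 at 2.28 and Klf2 at 1.61 lie right of 0, and Klf15 at -2.39 lies farthest left.

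Klf15 (ENSMUSG00000030087, chromosome 6, 90462576 to 90475238) had the largest fall among the members. It measured 41.9, 42.7 and 27.4 CPM in Sirt5-/- livers, against 239.9, 205.9 and 140.5 CPM in Sirt5+/+ livers. By CPM, every Sirt5-/- liver lay below every Sirt5+/+ liver. TPM are a level corrected for transcript length and scaled to about the same sum in each library. In the deposited TPM Klf15 measured 18.5, 35.9 and 25.5 in Sirt5-/- livers, against 116, 124 and 26.85 in Sirt5+/+ livers. By TPM, Sirt5+/+ replicate 3 thus lay among the Sirt5-/- livers. Its TMM factor was 0.3955, against 0.857 to 1.68 in the other libraries. By the fit to counts, Klf15 was 5.23-fold higher in Sirt5+/+ livers, a log2 fold change of -2.39 ± 0.33 (edgeR adjusted p = 0.00219). It passed under all 16 alternatives, with log2 fold changes of -2.62 to -1.89 and adjusted p-values up to 0.0436, the last with library totals in place of TMM factors. In the authors' deposited table its log2 fold change was -2.31, with an adjusted p of 5.93e-11.

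Klf13 (ENSMUSG00000052040, chromosome 7, 63886351 to 63938915), known in human T cells as an activator of the chemokine gene Ccl5, was called lower with less margin. It measured 18.3, 21.5 and 18.8 CPM in Sirt5-/- livers, against 58.0, 46.4 and 21.4 CPM in Sirt5+/+ livers. Sirt5+/+ replicate 3 lay just below the highest Sirt5-/- liver, so the genotypes overlapped, and the log2 fold change was -1.11 ± 0.35 (edgeR adjusted p = 0.0418). Only 6 of 16 alternatives kept it past the threshold, with adjusted p-values of 0.000755 to 0.598 over the 16: without Sirt5+/+ replicate 3 its log2 fold change was -1.36, and without Sirt5+/+ replicate 1 it was -0.77 (edgeR adjusted p = 0.119). It also lost its call when any single Sirt5-/- library or Sirt5+/+ replicate 2 was left out. Per length, in the deposited TPM, Klf13 measured 4.66, 7.10 and 5.35 in Sirt5-/- livers, against 10.6, 11.2 and 3.13 in Sirt5+/+ livers. Of the family's summed TPM it made up 6.01, 5.04 and 3.53% in Sirt5-/- livers, against 6.28, 5.63 and 5.59% in Sirt5+/+ livers. These shares also move with Klf15, which held 16.8 to 25.5% in Sirt5-/- livers and 48.0 to 68.8% in Sirt5+/+ livers. The number of counts behind 1 TPM, which follows the transcript lengths in the authors' estimate, differed up to 2.74-fold between libraries for Klf13, against 1.08-fold for Klf6 and 1.35-fold for Klf15. The part of this difference in the count change of Klf13 was not tested.

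The 4 members that did not pass were Klf3, Klf9, Klf10 and Klf11. Klf9 (ENSMUSG00000033863, chromosome 19), a glucocorticoid-induced member, measured 54.0, 46.8 and 36.3 CPM in Sirt5-/- livers, against 26.7, 72.8 and 134.9 CPM in Sirt5+/+ livers. The Sirt5+/+ livers spanned a wider range than the Sirt5-/- livers and lay on both sides of them. Its log2 fold change was -0.77 ± 0.51 (edgeR adjusted p = 0.276); it was -1.17 without Sirt5+/+ replicate 1 (edgeR adjusted p = 0.0448) and -0.07 without Sirt5+/+ replicate 3. Klf10 (ENSMUSG00000037465, chromosome 15) measured 38.4, 23.4 and 21.9 CPM in Sirt5-/- livers, against 28.1, 29.9 and 67.3 CPM in Sirt5+/+ livers, with a log2 fold change of -0.58 ± 0.40 (edgeR adjusted p = 0.296). Without Sirt5+/+ replicate 3 the log2 fold change was -0.0015 (edgeR adjusted p = 0.997).

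Klf11 (ENSMUSG00000020653, chromosome 12), a close relative of Klf10, measured 6.65, 6.59 and 5.55 CPM in Sirt5-/- livers, against 8.16, 8.71 and 8.39 CPM in Sirt5+/+ livers. The genotypes did not overlap by CPM, yet the log2 fold change of -0.43 ± 0.23 did not pass (edgeR adjusted p = 0.192). Klf3 (ENSMUSG00000029178, chromosome 5) measured 37.7, 34.7 and 42.1 CPM in Sirt5-/- livers, against 31.8, 37.5 and 26.7 CPM in Sirt5+/+ livers, with a log2 fold change of 0.25 ± 0.23 (edgeR adjusted p = 0.433). Its genotypes overlapped, its counts per TPM differed up to 1.98-fold between libraries, and 3.59% of its exonic bases overlap the antisense gene Gm20033. With library totals in place of TMM factors, which moved the median of all genes tested to a log2 fold change of 0.60, Klf9, Klf10 and Klf11 changed sign.

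**Figure D3:**
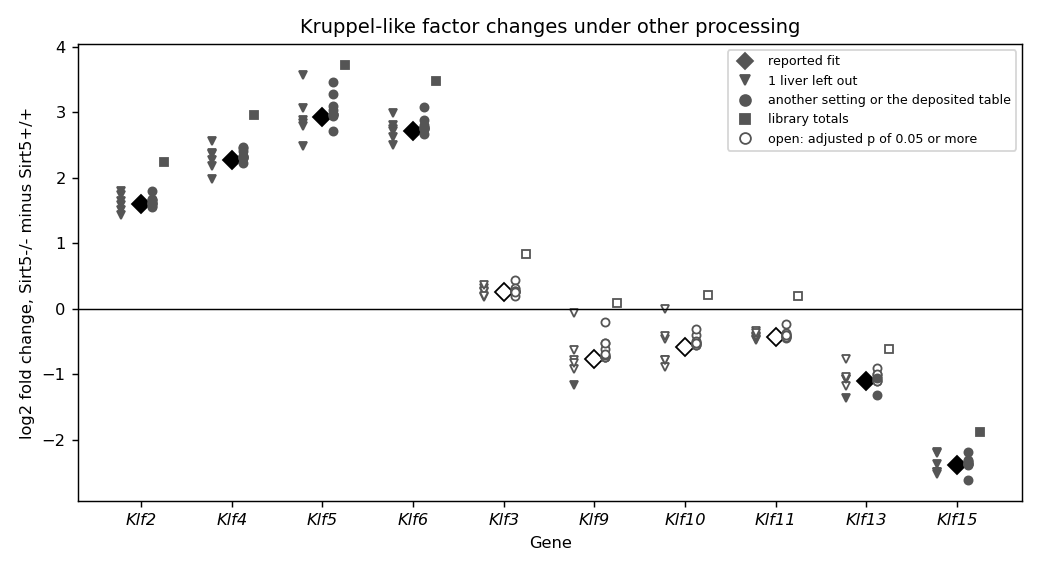
Log2 fold change of each member, Sirt5-/- over Sirt5+/+, in the test as reported (diamonds), with each library left out in turn (triangles), with library totals (squares) and under other settings or in the deposited table (circles); open symbols did not pass. With libraries left out Klf13 spans -1.36 to -0.77 and Klf9 spans -1.17 to -0.07, and with library totals Klf9, Klf10 and Klf11 lie above 0, while Klf2, Klf4, Klf5, Klf6 and Klf15 keep their side of 0 and pass under each setting plotted.

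Levels were compared between members per length, as TPM within each library. In Sirt5-/- livers the order of mean TPM was Klf15, Klf2, Klf6, Klf9, Klf10, Klf3, Klf4, Klf13, Klf5 and Klf11. The first 4 of these exchanged places between libraries: Klf15 was first in replicates 1 and 2, and Klf2 was first in replicate 3, with 37.9 TPM against 28.6 TPM for Klf6 and 25.5 TPM for Klf15. Klf10 and Klf3 also exchanged places, as did Klf4 and Klf13, while Klf5 and Klf11 were ninth and last in each Sirt5-/- library. In Sirt5+/+ livers the order was Klf15, Klf9, Klf10, Klf13, Klf3, Klf2, Klf6, Klf11, Klf4 and Klf5, with Klf15 first in all 3 libraries. The places from Klf9 to Klf11 changed between Sirt5+/+ libraries, while Klf4 and Klf5 were ninth and last in each.

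Klf15 held 23.9, 25.5 and 16.8% of the family's summed TPM in Sirt5-/- livers, against 68.8, 62.4 and 48.0% in Sirt5+/+ livers. It was the majority of the family's transcripts in Sirt5+/+ replicates 1 and 2 and in no Sirt5-/- liver. Klf2 held 13.98, 18.2 and 24.9% in Sirt5-/- livers, against 5.03, 4.32 and 2.59% in Sirt5+/+ livers. Klf6 held 12.4, 15.6 and 18.8% in Sirt5-/- livers, against 1.04, 1.79 and 1.72% in Sirt5+/+ livers. Neither gene's shares overlapped between the genotypes. The ratio of Klf6 to Klf15 TPM within a library, which no scaling between libraries can alter, was 0.521, 0.613 and 1.12 in Sirt5-/- livers, against 0.0152, 0.0287 and 0.0358 in Sirt5+/+ livers. By counts, the 10 members together summed to 307 ± 6.53 CPM in Sirt5-/- livers and 425 ± 7.62 CPM in Sirt5+/+ livers (SD, n = 3 each). Without Klf15 the other 9 summed to 269 ± 8.20 CPM in Sirt5-/- livers and 229 ± 56.5 CPM in Sirt5+/+ livers. In TPM, the sum of the 10 overlapped between genotypes. It was 77.55, 140.8 and 151.7 in Sirt5-/- livers, against 168.7, 199.3 and 55.97 in Sirt5+/+ livers.

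**Figure D4:**
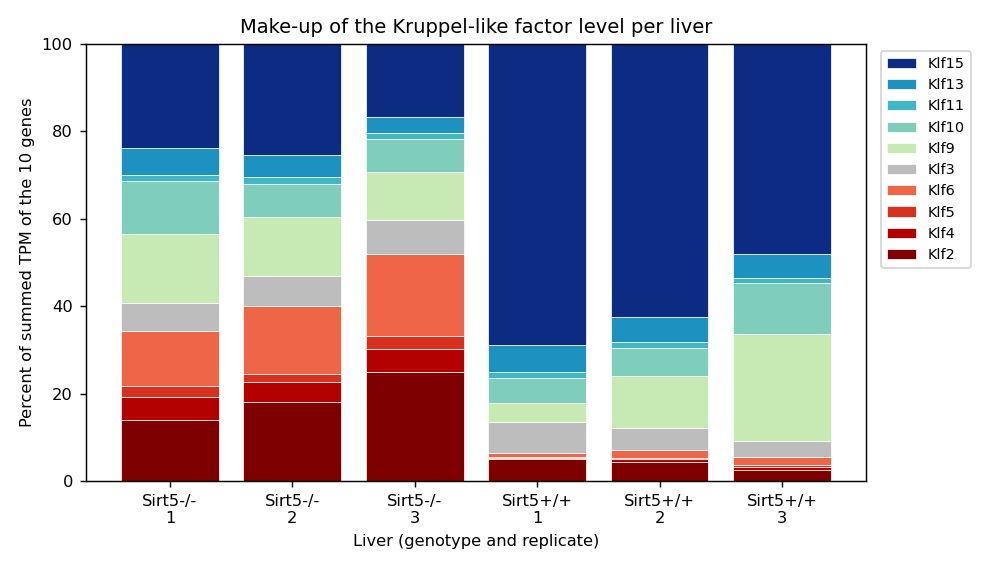
Share of each member in the summed TPM of the 10 members, in percent, with 1 stacked bar per library and the Sirt5-/- libraries left of the Sirt5+/+ libraries. Klf15 takes 16.8 to 25.5% in Sirt5-/- livers and 48.0 to 68.8% in Sirt5+/+ livers, and Klf2 and Klf6 take larger shares in Sirt5-/- livers.

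Of the 7 other Kruppel-like factors, 4 could be tested. Klf7 rose (log2 fold change 1.13 ± 0.26, edgeR adjusted p = 0.0117), though 39.3% of its exonic bases overlap the antisense gene Gm26649, and the labels do not say whether counting used strand. Klf1, the erythroid member, fell (-1.55 ± 0.40, edgeR adjusted p = 0.0180). Klf12, a repressor, fell by counts (-1.62 ± 0.35, edgeR adjusted p = 0.00856), yet its TPM were 3.82, 3.59 and 5.73 in Sirt5-/- livers, against 2.56, 3.55 and 5.71 in Sirt5+/+ livers, and its counts per TPM differed up to 6.13-fold between libraries. Klf16 had a log2 fold change of 0.64 ± 0.30 and did not pass (edgeR adjusted p = 0.136). Klf7 lost its call without Sirt5-/- replicate 2 or 3, and Klf1 without Sirt5-/- replicate 2 or 3 or Sirt5+/+ replicate 1 or 2. Klf8, Klf14 and Klf17 had at most 2 counts over all libraries and were not tested.

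The SP factors share the DNA-binding domain of the family. Among 5 tested, Sp2 rose (log2 fold change 0.88, edgeR adjusted p = 0.0321) and Sp5 fell (-1.98, edgeR adjusted p = 0.0349), while Sp1, Sp3 and Sp4 did not pass. Sp5 rests on 2, 14 and 19 counts in Sirt5-/- replicates 1 to 3 and on 41, 32 and 9 in Sirt5+/+ replicates 1 to 3. In Sirt5-/- replicate 1 its 0.117 CPM lay below the floor of 0.175 CPM. Sp2 and Sp5 each lost their call when any Sirt5-/- library or Sirt5+/+ replicate 2 was left out, Sp5 also without Sirt5+/+ replicate 1. Both also lost it with no filter (edgeR adjusted p = 0.0602 and 0.0570). Among 12 corepressors, acetyltransferases and ubiquitin ligases of the family, 1 rose and 1 fell. They were Ctbp2, which codes for a CtBP corepressor (log2 fold change 1.52, edgeR adjusted p = 0.0123), and Kat2b, which codes for an acetyltransferase (-1.21, edgeR adjusted p = 0.0163). Ctbp2 lost its call without Sirt5-/- replicate 2 or 3, and Kat2b when any single Sirt5-/- library or Sirt5+/+ replicate 2 was left out. The median of the 12 was 0.06, against -0.08 over all genes tested, with Sin3a and Sin3b among those that did not pass, and 3 of the 12 rose without Sirt5+/+ replicate 3.

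Genes that KLF2 and KLF4 regulate in endothelium were mostly higher. Of 11 tested, 7 rose (Nos3, Thbd, Edn1, Vcam1, Plat and Cav1 among them) and 1 fell (Tek), with a median log2 fold change of 1.29 against -0.08 over all genes tested. Plat, tissue plasminogen activator, had a log2 fold change of 2.82 (edgeR adjusted p = 0.00146) and Vcam1, an adhesion molecule for leukocytes, one of 2.47 (edgeR adjusted p = 0.00168). As background, KLF2 raises Nos3 and Thbd and lowers Vcam1 and Edn1 in endothelial cells, so the genes that rose include both kinds, and several are also expressed outside endothelium. Without Sirt5-/- replicate 2 or 3 the count higher was 4, Tek lost its call when any single Sirt5-/- library or Sirt5+/+ replicate 2 was left out, and 3 genes were lower without Sirt5+/+ replicate 3. Endothelial cell markers, 2 of which (Tek and Kdr) are also in that list, did not rise: 0 of 13 tested were higher and 5 lower, with a summed level of 150.8 to 165.8 CPM in Sirt5-/- livers and 154.3 to 252.2 CPM in Sirt5+/+ livers. Without Sirt5+/+ replicate 3, 1 endothelial marker was called higher.

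Immediate early genes, induced within minutes by growth factors and stress, moved in the direction of Klf2, Klf4, Klf5 and Klf6. Of 19 tested, 13 rose and 0 fell, with a median log2 fold change of 1.95. Over all genes tested 17.4% rose and 17.1% fell, which is the comparison for this and the other gene lists. Ier3, which restrains cell death, had a log2 fold change of 3.32 (edgeR adjusted p = 0.00146) and Ier5, a regulator of the heat shock response, one of 2.07 (edgeR adjusted p = 0.00162). Without Sirt5-/- replicate 3, 8 rose. Of 17 tested YAP target genes, 14 rose and 0 fell, with a median of 1.88; the receptor tyrosine kinase gene Axl had a log2 fold change of 2.70 (edgeR adjusted p = 0.00146) and the matricellular gene Ccn2 one of 2.79 (edgeR adjusted p = 0.00146).

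For the pathway that gave Klf10 and Klf11 their first names, 7 of 12 tested genes of TGF-beta signalling rose and 0 fell, with a median log2 fold change of 1.19. The receptor gene Tgfbr2 had a log2 fold change of 2.16 (edgeR adjusted p = 0.00170) and the ligand gene Tgfb2 one of 2.83 (edgeR adjusted p = 0.00188), while Klf10 and Klf11 themselves did not pass. Glucocorticoid-inducible genes, the class of Klf9, split: of 12 tested, 4 rose, 5 fell and 3 did not pass, with a median of -0.39. The kinase gene Sgk1 had a log2 fold change of 1.66 (edgeR adjusted p = 0.00297) and the phosphatase gene Dusp1 one of 1.29 (edgeR adjusted p = 0.00522). The count lower was between 0 and 5 as single libraries were left out, at 0 or 1 without Sirt5-/- replicate 2 or 3 and at 3 or 2 without Sirt5+/+ replicate 1 or 2.

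Enzymes of amino acid breakdown, several of which need KLF15 for their full expression in mouse liver, moved in the direction of Klf15. Of 15 tested, 13 fell and 0 rose, with a median log2 fold change of -1.82 against -0.08 over all genes tested. Gpt2, which codes for the mitochondrial alanine aminotransferase, had a log2 fold change of -2.09 (edgeR adjusted p = 0.00242), and Hal, which codes for the enzyme that starts histidine breakdown, one of -3.51 (edgeR adjusted p = 0.00280). Without Sirt5-/- replicate 2 or 3 the count was 6. Hepatocyte markers, described below, had nearly the same median, -1.83, with 11 of 15 tested lower, and Tat is in both lists. The part of Klf15 in the fall of these enzymes was not tested. Circadian clock genes, which control Klf15 and Klf10 in liver, fell in 9 of 18 tested and rose in 0, with a median of -0.996; the clock output genes Hlf and Tef had log2 fold changes of -1.99 (edgeR adjusted p = 0.00281) and -1.67 (edgeR adjusted p = 0.00332). Leaving out Sirt5-/- replicate 2 or 3 reduced the clock genes called lower to 4 or 3, and the labels do not give the time of day of sampling.

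Markers of several cell types moved with the members, and their part in the members' changes was not tested. For comparison with the counts below, 17.4% of all genes tested were higher and 17.1% lower. Hepatocyte markers, which define the tissue and include Tat and Pck1 of the lists above, summed to 22380 to 43590 CPM in Sirt5-/- livers and 101000 to 135400 CPM in Sirt5+/+ livers, with 11 of 15 tested lower and 0 higher (4 lower without Sirt5-/- replicate 2 or 3). They moved in the direction of Klf15. Markers of stellate cells and fibroblasts summed to 2253 to 2458 CPM in Sirt5-/- livers and 450.4 to 733.6 CPM in Sirt5+/+ livers, with 6 of 13 tested higher and 1 lower. Markers of macrophages and monocytes summed to 1088 to 2066 CPM in Sirt5-/- livers and 327.9 to 441 CPM in Sirt5+/+ livers, with 6 of 13 higher and 3 lower. Bile duct cell markers summed to 759.5 to 838.9 CPM in Sirt5-/- livers and 95.6 to 409.7 CPM in Sirt5+/+ livers, with 3 of 12 higher and 1 lower (0 lower without Sirt5-/- replicate 2 or 3 or Sirt5+/+ replicate 2). Without Sirt5+/+ replicate 3, 5 macrophage and monocyte markers and 2 stellate cell and fibroblast markers were lower.

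Markers of T and NK cells, which also express Klf2, summed to 33.5 to 39.4 CPM in Sirt5-/- livers and 5.57 to 9.43 CPM in Sirt5+/+ livers, with 9 of 11 tested higher and 0 lower (5 higher without Sirt5-/- replicate 3). B and plasma cell markers summed to 79.0 to 95.9 CPM in Sirt5-/- livers and 70.9 to 169.3 CPM in Sirt5+/+ livers, with 2 of 9 higher and 1 lower (1 higher when any single Sirt5-/- library was left out). The 1 lower was Sdc1, at 154.8, 93.1 and 41.1 CPM in Sirt5+/+ replicates 1 to 3, most of the sum in each. In Sirt5-/- replicates 1 to 3 it measured 21.1, 20.3 and 17.6 CPM. The median log2 fold change of the 9 was 0.93, so their summed level mainly follows Sdc1 in Sirt5+/+ livers. Erythroid markers, the cells of Klf1, summed to 211.5 to 353.7 CPM in Sirt5-/- livers and 433 to 524.1 CPM in Sirt5+/+ livers, with 1 of 6 tested lower and 0 higher (3 lower without Sirt5-/- replicate 1). The erythroid count of 1 in 6 is near the 17.1% lower over all genes tested. Neutrophil markers were scarce, with 2 of 10 expressed well enough to be tested and 1 of these higher (1 also lower without Sirt5+/+ replicate 3). Of the marker genes with an entry in the table, none was at 0 in every library.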

How the data were processed

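Expected counts per gene, which are estimated read counts not scaled between libraries, and TPM were made by the authors before deposit and stand in a single table with the deposited log2 fold change, p-value and adjusted p-value of the authors' own comparison. HISAT2 2.1.0, RSEM 1.3.1 and DESeq2 1.24.0 are named per the submitters' processing notes; options, genome build and strand setting are not given in the sources used here. All 55536 gene IDs match GENCODE M21, so coordinates are on GRCm38. Counts were rounded to whole numbers, filtered with filterByExpr (minimum count 10, minimum total 15), scaled with TMM and tested with edgeR 4.0.16 (quasi-likelihood F test, two-sided, genotype as the only term, Sirt5-/- minus Sirt5+/+, Benjamini-Hochberg over 14799 genes, threshold 0.05). The standard error of a log2 fold change was taken as its size over the square root of the F statistic. Levels between genes use the deposited TPM. The share of 31-base words that members' transcripts share with other genes was 0 to 2.00%. The members and gene lists were chosen with earlier results of these data known. Besides Sirt5 and family members, genes named are the 2 with the smallest p of each list and, for each member, the gene with the most similar profile; other list members are named only to complete a count or to state an overlap, and 1 list member is not reported here by name but is counted. Alternatives were the replicate block, DESeq2 1.42.0 (test and size factors), limma-voom (limma 3.58.1), library totals, upper-quartile factors, other filters, removal of mitochondrial genes with their nuclear copies and of libraries, and the deposited calls; recounts of the lists and of the shares were added after seeing the data. The fit was run on simulated data before use. There, all libraries were drawn from the same gene proportions apart from a set of changed genes. Differences in mitochondrial share between libraries, as in the real data, were therefore not covered.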

Additional observations from a re-analysis of the deposited data

How the results depend on the processing

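The number of members called higher was 4 under every alternative run, and that called lower was 2 or 1. It was 1 with the replicate number as a block, with library totals, with upper-quartile factors, with limma-voom and with mitochondrial genes and their nuclear copies removed, each time by the loss of Klf13, and 1 to 2 as single libraries were left out, where without Sirt5+/+ replicate 1 the 2 were Klf9 and Klf15. The number of all genes called between genotypes, 5100, was 2768 with library totals (2442 higher and 326 lower, against 2575 higher and 2525 lower with TMM factors) and 2531 to 7647 as single libraries were left out (2677 or 2531 when Sirt5-/- replicate 2 or 3 was dropped). With library totals the log2 fold change became 0.085 for Klf9, 0.22 for Klf10 and 0.19 for Klf11, and Klf1, Klf7, Klf12, Sp2, Sp5, Kat2b, Gpt2, Hlf and Tef, besides Klf13, lost their calls. The lists of amino acid, clock and hepatocyte genes then had 3, 0 and 4 members lower. Without Sirt5-/- replicate 1 and Sirt5+/+ replicate 3 together, 7439 genes passed, and Klf13 had a log2 fold change of -1.32 (edgeR adjusted p = 0.00268). Of 560 log2 fold changes recomputed, 512 kept their direction and their side of the threshold. With the replicate block 3643 genes passed. The labels do not say that equal replicate numbers mark a shared litter or day, so the numbers were not taken as pairs. Same-numbered libraries correlated at -0.19, 0.115 and -0.204 in their deviations from the genotype means. With 3 libraries per genotype, such values cannot show whether libraries were paired. Sp2 and Sp5 (edgeR adjusted p = 0.0960 and 0.105) also lost their calls with the block. Klf5 in Sirt5+/+ livers, at 8 to 32 counts, is the member whose level is most limited by depth.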

Other observations

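Over the 6 libraries, Klf4 and Klf5 had a Pearson correlation of 0.99 in log2 CPM, Klf4 and Klf6 one of 0.982, and Klf6 and Klf15 one of -0.989. Klf9 and Klf10 correlated at 0.813 and Klf11 and Klf15 at 0.952. These values describe 6 libraries that share their genotype difference and their depth, and carry no test.

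Among other genes averaging 10 CPM or more, the profile most similar to that of Klf2 was Nfkb1 (r = 0.998 over 6 libraries), a subunit gene of the transcription factor NF-kappaB. That most similar to Klf4 was Ets1 (0.998), a transcription factor gene of endothelium and lymphocytes. Dlc1 (0.997) was nearest to Klf5, and Celf2 (0.999), which codes for an RNA-binding protein, to Klf6. Gpr182 (r = 0.9996), a receptor gene of sinusoidal endothelium, was nearest to Klf15. With 6 libraries such values are common: 345 genes had a correlation above 0.95 with Klf2, 561 with Klf6 and 966 with Klf15, but 6 with Klf3, whose nearest gene was Clasp1 (0.981). Klf9 was nearest to Rsrp1 (0.993), Klf10 to Coq10b (0.994), Klf11 to Cipc (0.996), a clock-interacting protein gene, and Klf13 to C77080 (0.998). A correlation does not compare the size of changes. The log2 fold change was 0.73 for Nfkb1, 0.88 for Ets1 and 1.29 for Dlc1, against 1.61 for Klf2, 2.28 for Klf4 and 2.93 for Klf5. It was closer for Celf2 (2.25, against 2.72 for Klf6) and Gpr182 (-2.60, against -2.39 for Klf15).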
